A study of Homo sapiens with 12 samples.

Results

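The genes described here are the 37 that are encoded on the human mitochondrial genome (mtDNA). They were taken as every row of the count table whose symbol starts with MT-, which gave 37 of 60649 genes. Of these, 13 encode proteins, 22 encode tRNAs, and 2 encode rRNAs, and the protein-coding genes are reported apart from the others. All 13 protein-coding genes, both rRNA genes, and 11 of the 22 tRNA genes passed the filter on low counts and were tested among 21114 genes.

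RNA was sequenced from 2 cell lines of uterine leiomyosarcoma (uLMS), a smooth muscle cancer. SK-UT-1B came from a primary tumor and looks epithelial in culture, and SK-LMS-1 came from a metastasis in the vulva. Every culture was exposed for 72 h. SK-UT-1B had 2 libraries after the DMSO vehicle control (4-1 and 4-2) and 2 after the 3-drug combination (3-1 and 3-3), in which gemcitabine and docetaxel were given together with MK-0752 at IC30 concentrations. SK-LMS-1 had 2 libraries after MK-0752 alone at its IC30 (2-2 and 2-3) and 2 after the combination (4-1 and 4-2). It had 4 DMSO libraries, in which set 2 (2-1 and 2-3) was compared with MK-0752 and set 4 (4-1 and 4-2) with the combination, by the first number of the library name. In SK-UT-1B this number differed between the groups (3 after the combination, 4 after DMSO), so what it marks and the treatment cannot be told apart there. Between the lines after the combination it also differed (3 in SK-UT-1B, 4 in SK-LMS-1), so what it marks and the line cannot be told apart in that comparison. MK-0752 inhibits gamma secretase, the protease that releases the active part of Notch receptors. Gemcitabine, a deoxycytidine analog, stops DNA replication, and docetaxel keeps microtubules from disassembling. The combination used lower concentrations of each agent than the single-agent IC30, so MK-0752 was not at a matched concentration in the treatments of SK-LMS-1. Each line stands for 1 tumor, and the labels do not say that the libraries of a group came from separate cultures, so p-values measure the spread between these libraries, which may be technical.

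The mitochondrial genome is a small circle that is present in many copies per cell. Both of its strands are transcribed into long precursors by the polymerase POLRMT with TFAM and TFB2M, and the tRNAs that punctuate the genes are cut out to release mRNAs and rRNAs. The 13 proteins are core subunits of the respiratory chain and the ATP synthase, which also need many subunits encoded in the nucleus. Steady-state levels of the mRNAs are set by transcription and by stability factors such as the LRPPRC and SLIRP complex.

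In the hg38 genome the circle is 16569 bases long (GENCODE v44 for gene positions), and MT-ND6 at chrM:14149-14673 is the single protein-coding gene on the minus strand. The genes lie end to end, and in places they share bases, so a read there belongs to 2 genes. These overlaps are shown because they decide which genes can be counted apart from each other. The capitals mark the 46 bases shared by MT-ATP8 and MT-ATP6 and the 7 bases shared by MT-ND4L and MT-ND4, with flanks in lower case, on the plus strand.
MT-ATP8 and MT-ATP6, chrM:8507-8592: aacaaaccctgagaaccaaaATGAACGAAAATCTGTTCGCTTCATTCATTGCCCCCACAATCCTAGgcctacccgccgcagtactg
MT-ND4L and MT-ND4, chrM:10740-10786: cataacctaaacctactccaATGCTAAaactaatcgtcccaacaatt
Each run of capitals starts with the ATG of the downstream gene inside the reading frame of the upstream gene. MT-ATP8 is 207 bases long, so a large part of it is covered by reads that also touch MT-ATP6, and although the counts per gene were made with STAR, how it was set to treat such reads is not given in the sources used here. Values of MT-ATP8 are therefore uncertain in level. Parts of the mitochondrial genome also have exact copies in the nuclear genome, which a 75-base read cannot be told apart from. Exact nuclear copies exist for 36.6% of the 75-base windows of MT-CO1, 34.4% of MT-ND2, 28% of MT-ATP6, 17.1% of MT-ND1, 14.9% of MT-CO3, 10.5% of MT-CO2, and 7.1% of MT-ND6. They exist for 0.173% of the windows of MT-ND5 and 0% for MT-ATP8, MT-ND3, MT-ND4L, MT-ND4, and MT-CYB. Adding the counts of nuclear pseudogene rows to their mitochondrial genes left the number of differentially expressed genes as it was in all 8 comparisons. MT-ATP6 then no longer passed the adjusted p alone between the lines after DMSO. Reads that were not counted in any row are not covered by this addition.

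Each library held 25250057 to 40709885 counts, and the lowest count of a protein-coding mitochondrial gene in a library was 582 (MT-ND6). Among all genes expected at 5 to 500 counts from the mean of the other libraries of the line, 17.6% to 34.5% had 0 counts in a library, a spread that touches the tRNA genes below. Of 8 tested smooth muscle markers, edgeR called 6 higher and 1 lower in untreated SK-LMS-1 relative to the other line, where 17% of all tested genes were higher and 14.1% lower. TAGLN, an actin-binding protein, lay at 30.6 to 46.4 CPM (counts scaled to a common library size) in SK-LMS-1 and 0 to 1.72 CPM in SK-UT-1B. The lower one was DES, a muscle intermediate filament, at 1.37 to 9.76 CPM in SK-UT-1B and 0 in all 8 SK-LMS-1 libraries. MYH11 and MYOCD, defining markers of smooth muscle, were at or near 0 in both lines. Of 4 tested epithelial markers, 3 were higher in SK-LMS-1, among them KRT18 at 64.3 to 144 CPM against 0.212 to 1.14 CPM in SK-UT-1B, the line that looks epithelial. Of the leukocyte markers, PTPRC and CD3E were at or near 0, and CD14 was called higher in untreated SK-LMS-1, at 1.17 to 4.13 CPM against 0 in both SK-UT-1B DMSO libraries, but not after the combination, where libraries of the lines overlapped. Of 3 endothelial markers edgeR called PECAM1 higher in untreated SK-LMS-1. PECAM1 lay at 1.46 to 7.93 CPM in that line and at 0 in all 4 SK-UT-1B libraries. Of the 3 log2FC between the untreated lines 2 were positive, and the lowest, at -4.59, was not called. The part of these marker differences in the results on mitochondrial genes was not tested.

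The 13 protein-coding genes held a larger share of all counts in each SK-UT-1B library than in any SK-LMS-1 library. Their share was 5.79% and 4.64% in the SK-UT-1B DMSO libraries (mean 5.22% ± 0.815, SD, n = 2). It was 2.47% and 2.38% in SK-LMS-1 DMSO set 2 and 2.35% and 2.51% in set 4 (mean of all 4, 2.43% ± 0.0745, SD). After DMSO the share was thus 2.15 times as high in SK-UT-1B, with no overlap between the libraries of the lines. After the combination the SK-UT-1B libraries lay far apart, at 3.57% in 3-1 and 5.46% in 3-3 (4.52% ± 1.33, SD, n = 2), and both were above the SK-LMS-1 libraries at 2.31% and 2.32% (2.32% ± 0.00483, SD, n = 2). MK-0752 alone gave the highest shares of SK-LMS-1, 2.78% and 3.06% (2.92% ± 0.197, SD, n = 2), which is 1.205 times the mean of DMSO set 2. No test was made on this sum over chosen genes. More mitochondrial RNA per cell and less other RNA per cell cannot be told apart in a share of bulk counts.

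**Figure D1:**
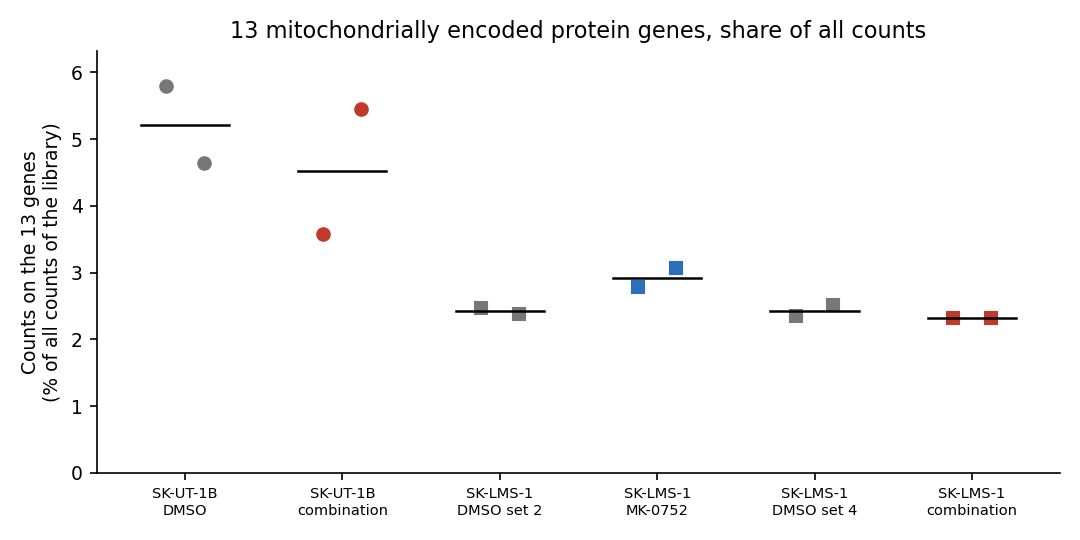
Share of all counts of a library that fell on the 13 protein-coding mitochondrial genes (y axis, percent) in the 6 groups (x axis), with a point for each library and a line at the mean of the 2 libraries. All 4 SK-UT-1B libraries lie between 3.57% and 5.79%, above the 8 SK-LMS-1 libraries at 2.31% to 3.06%.

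Levels differed widely between the 13 genes, although 12 of them lie on the same precursor strand. Per kilobase of gene, MT-CO3, a core subunit of cytochrome c oxidase (complex IV), had the highest level in all 4 SK-UT-1B libraries, at 9754 and 6760 CPM per kb after DMSO. MT-CO1, the catalytic subunit of the same complex, was the highest in 7 of the 8 SK-LMS-1 libraries, and MT-ATP8 was the highest in DMSO 4-1. In DMSO set 2 of SK-LMS-1 the levels per kilobase of MT-CO1 (4213 ± 22.7, SD, n = 2), MT-CO2 (3914 ± 62.7), and MT-CO3 (3647 ± 174) led, followed by MT-ATP8 (3474 ± 290) and MT-ND4 (3259 ± 160). In that order MT-ATP8 did not differ from its neighbors MT-CO3 and MT-ND4 beyond its SD. The means of MT-CO1, MT-CO2, and MT-CO3 lay further apart than their SDs, each from 2 libraries. This order did not hold in DMSO set 4. In its library 4-1 MT-CO3 (3821 CPM per kb) lay above MT-CO1 (3447) and MT-CO2 (3163), and in 4-2 MT-CO3 (3711) lay above MT-CO2 (3664). Lowest in all 12 libraries was MT-ND6, the one subunit gene on the other strand, and MT-ND3 was next to lowest in all 12. The highest gene exceeded MT-ND6 by 45.5 to 112 times per kilobase. In counts, the 12 genes of the plus strand exceeded MT-ND6 by 544 to 1236 times, and on this ratio the lines overlapped (731 to 927 in SK-UT-1B and 544 to 1236 in SK-LMS-1).

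The comparison of untreated lines asks which genes differ between the primary and the metastatic line before treatment. After DMSO, 6 of the 13 protein-coding genes were differentially expressed, all lower in SK-LMS-1, where 14.1% of all 21114 tested genes were lower and 17% were higher at the same thresholds (edgeR's quasi-likelihood test, absolute log2FC of at least 1 and Benjamini-Hochberg adjusted p under 0.05). At an adjusted p under 0.05 alone, 12 of the 13 were lower, against 19.5% of all tested genes. Of these, MT-CO1, MT-CO2, MT-ATP6, and MT-ND3 did not pass in every fit with 1 library left out. The libraries of the lines did not overlap for the same number, 12 of 13, against 26.6% of all genes that were lower without overlap. All 13 log2FC were negative, whereas 49% of all tested genes had a positive one, and their median was -0.97 against 0 for all tested genes. Lower levels were thus spread over all 4 complexes that the mitochondrial genome contributes to. By complex the medians were -1.03 for the 7 complex I genes, -0.77 for the complex III gene, -0.77 for the 3 complex IV genes, and -0.997 for the 2 complex V genes.

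Complex I, NADH dehydrogenase, takes electrons from NADH and holds 7 of the 13 proteins. MT-ND1 (ENSG00000198888.2, chrM:3307-4262), a membrane arm subunit next to the quinone site, had 3645 and 3198 CPM in SK-UT-1B DMSO and 1072, 1103, 1239, and 1211 CPM in the 4 DMSO libraries of SK-LMS-1. This was the largest difference among the 13 genes (log2FC -1.57 ± 0.11, SE, edgeR adjusted p = 2.91e-10). The 2 SK-UT-1B libraries lay far above the 4 SK-LMS-1 libraries, which were close to each other. MT-ND2, a proton-pumping subunit, had 2251 and 1942 CPM in SK-UT-1B against 936, 902, 796, and 1022 CPM in SK-LMS-1 (log2FC -1.198 ± 0.112, SE, edgeR adjusted p = 3.34e-08). MT-ND4, another pump subunit and the gene with the most counts in SK-UT-1B, had 9743 and 7912 CPM against 4647, 4335, 3884, and 4455 CPM (log2FC -1.03 ± 0.17, SE, edgeR adjusted p = 4.15e-04). MT-ND4L, which shares its last bases with MT-ND4, differed by about as much (log2FC -1.04 ± 0.19, SE, edgeR adjusted p = 4.8e-04). These 4 genes passed both thresholds and none of them had overlapping libraries. MT-ND5 (log2FC -0.97, edgeR adjusted p = 0.00578) and MT-ND3 (log2FC -0.85, edgeR adjusted p = 0.0433) passed the adjusted p alone. MT-ND6 had 72.7 and 45.7 CPM in SK-UT-1B and 24.96 to 48.5 CPM in SK-LMS-1, and these ranges overlapped (log2FC -0.69, edgeR adjusted p = 0.0735).

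In complex IV the 3 genes of cytochrome c oxidase did not differ between the lines by the same amount. MT-CO3 (chrM:9207-9990) had 7647 and 5299 CPM in SK-UT-1B DMSO and 2956, 2762, 2995, and 2909 CPM in SK-LMS-1 DMSO (log2FC -1.16 ± 0.17, SE, edgeR adjusted p = 6.84e-05). MT-CO1 (chrM:5904-7445) had 8644 and 7412 CPM against 6472, 6521, 5315, and 6205 CPM, the smallest difference of the 13 genes (log2FC -0.39, edgeR adjusted p = 0.0423). MT-CO2 lay between them (log2FC -0.77, edgeR adjusted p = 0.0195). As a share of the counts on the 13 genes, MT-CO1 took 16.3% and 17.5% in SK-UT-1B DMSO and 21.8% to 25.5% in SK-LMS-1 DMSO. The ratio of MT-CO1 to MT-ND1 counts, which no scaling of libraries touches, was 1.54 to 2.37 in the 4 SK-UT-1B libraries and 4.29 to 6.05 in the 8 SK-LMS-1 libraries. That ratio separated the lines without overlap whatever the treatment, as did the ratio of MT-CO1 to MT-ND4, at 0.775 to 0.937 in SK-UT-1B and 1.32 to 1.53 in SK-LMS-1. These pairs were picked after the values were seen, MT-CO1 and MT-ND1 being the genes with the smallest and the largest difference, so the ratios have no test. MT-CO1 and MT-ND1 both have exact nuclear copies (36.6% and 17.1% of windows), and MT-ND4 has none.

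Cytochrome b, the product of MT-CYB and the one mitochondrially encoded subunit of complex III, was lower in SK-LMS-1 (log2FC -0.77, edgeR adjusted p = 1.24e-04). Of the 2 genes of the ATP synthase membrane part, MT-ATP8 had 1865 and 1397 CPM in SK-UT-1B against 761, 677, 832, and 687 CPM in SK-LMS-1 (log2FC -1.14 ± 0.15, SE, edgeR adjusted p = 5.58e-06). MT-ATP6 differed by less (log2FC -0.85, edgeR adjusted p = 0.0384), and its edgeR adjusted p was 0.0657 with nuclear pseudogene counts added. Leaving out the SK-UT-1B DMSO library 4-1, which had the higher share, left 1 library in that group. The log2FC of MT-ATP8, MT-CO3, MT-ND4L, and MT-ND4 then lay at -0.98, -0.93, -0.97, and -0.93, short of the threshold of 1 in size. Those of MT-ND1 (-1.53) and MT-ND2 stayed past that threshold. All 13 log2FC stayed negative under every alternative and with any library left out.

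**Figure D2:**
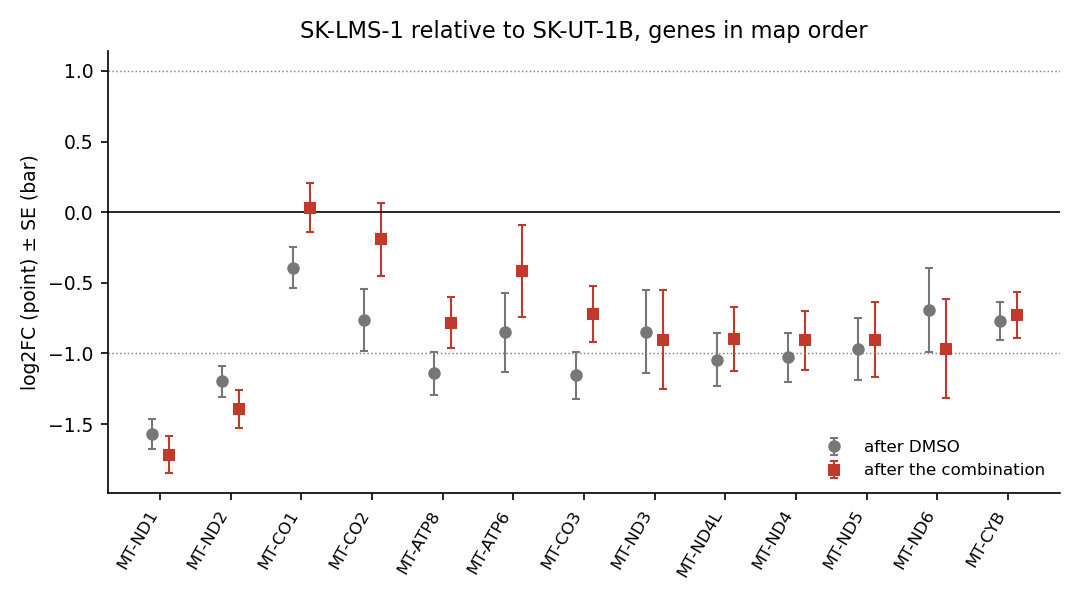
log2FC between the lines, with SK-UT-1B as the reference (y axis, points, with SE as bars) for the 13 protein-coding genes in map order (x axis), after DMSO in gray circles and after the combination in red squares, with dotted lines at -1 and 1. After DMSO all 13 points lie below 0, from -1.57 for MT-ND1 to -0.39 for MT-CO1, and after the combination MT-CO1 lies at 0.03.

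After the combination, 2 of the 13 genes were differentially expressed between the lines, MT-ND1 and MT-ND2, both lower in SK-LMS-1, where 9.88% of all tested genes were lower. MT-ND1 had 3066 and 3783 CPM in SK-UT-1B and 1041 and 1043 CPM in SK-LMS-1 (log2FC -1.72 ± 0.13, SE, edgeR adjusted p = 2.2e-09). MT-ND2 had 2407 and 2335 CPM against 905 and 901 CPM (log2FC -1.39 ± 0.14, SE, edgeR adjusted p = 8.54e-08). At an adjusted p under 0.05 alone, 9 genes were lower, against 13.6% of all genes, and 10 were lower without overlap, against 30% of all genes. Among the 9, MT-ND6 (log2FC -0.97, edgeR adjusted p = 0.0462) fell just short of the log2FC threshold. DESeq2 called it lower, as it did 13.5% of all genes, and MT-ND6 kept the edgeR result in 4 of 10 alternatives. MT-CO1 (log2FC 0.03), MT-CO2 (-0.19), and MT-ATP6 (-0.42) had overlapping libraries. Without the SK-UT-1B library 3-1, 10 of the 13 genes were differentially expressed, all lower, where 9.31% of all genes were lower. Over all treatments, 7 of the 13 genes (MT-ND1, MT-ND2, MT-ATP8, MT-CO3, MT-ND4L, MT-ND5, and MT-CYB) were higher in each of the 4 SK-UT-1B libraries than in each of the 8 SK-LMS-1 libraries, which held for 17.4% of all tested genes.

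The combination was compared with DMSO in each line to find the response to treatment. In SK-UT-1B, 0 of the 13 genes were differentially expressed after the combination, against 0.559% of all tested genes (edgeR), and DESeq2 also called 0. The unadjusted p was under 0.05 in 3 of the 13, against 10.5% of all genes. These were MT-ATP8 (log2FC -0.56 ± 0.18, SE, edgeR adjusted p = 0.205), MT-CO3 (-0.50, adjusted p = 0.362), and MT-CO1 (-0.38, adjusted p = 0.436). All 3 had negative values. With an adjusted p under 0.05 as the sole threshold, 0 of the 13 genes passed by edgeR or DESeq2. That number was 4 without a filter beyond 1 count (MT-ATP8, MT-CO3, MT-CO1, and MT-CO2, all lower), 1 with the replicate block (MT-ATP8), and 8 without library 3-3. Over all genes this share also rose, from 0.715% to 2.52%, 1.26%, and 6.57% in these settings. MT-ATP8 was also the one gene that was lower in both treated libraries than in both DMSO libraries, as 15.4% of all genes were, at 898 and 1323 CPM against 1865 and 1397 CPM.

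The values by complex were uneven in SK-UT-1B. The log2FC were negative for all 3 complex IV genes (median -0.50) and both complex V genes (median -0.57). They were closer to 0 for the 7 complex I genes (median -0.16) and MT-CYB (-0.08). Among complex I genes, MT-ND1 (0.00), MT-ND2 (0.18), and MT-ND3 (0.04) were not negative, and MT-ND2 was higher in both treated libraries than in both DMSO libraries, as 16.7% of all genes were. In all 13 genes, 3 log2FC were positive, against 49.1% of all genes. Most of this spread lay in 1 library. MT-CO2 had 1980 CPM in 3-1 and 4012 CPM in 3-3, against 4631 and 3867 CPM after DMSO, and MT-ATP6 had 751 CPM in 3-1 and 1764 CPM in 3-3, against 2052 and 1746 CPM. In both genes 3-3 lay inside or next to the DMSO range, and 3-1 lay far below it. Without 3-1 the log2FC were -0.11 for MT-CO2, -0.13 for MT-ATP6, -0.11 for MT-CO1, -0.22 for MT-CO3, and -0.33 for MT-ATP8. Without 3-3, which leaves 1 treated library, the log2FC were -1.10 for MT-CO2 and -1.34 for MT-ATP6.

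Library 3-1 also stood apart in ratios of counts between mitochondrial genes. Its ratio of MT-ND1 to MT-ND4 was 0.551 and that of MT-ND2 to MT-ND4 was 0.432, against 0.374 to 0.404 and 0.231 to 0.245 in the other 3 SK-UT-1B libraries. Its ratio of MT-ATP6 to MT-ND4 was 0.135, against 0.18 to 0.221. In this library MT-ND1 took 10.1% and MT-ND2 7.96% of the counts on the 13 genes, against 6.85% to 7.74% and 4.23% to 4.78% in the other 3. Both genes are next to each other on the map, apart from tRNA genes. Whether this belongs to the treatment or to the library was not tested, since 3-3 of the same group did not show it.

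In SK-LMS-1 the combination also left 0 of the 13 genes differentially expressed, against 0.0237% of all tested genes (edgeR, and 0 by DESeq2). Here 0 of the 13 reached an unadjusted p under 0.05, which 4.33% of all genes did. The 2 treated libraries were close to each other in some genes and not in others. MT-CO1 had 6295 and 6299 CPM against 5315 and 6205 CPM in DMSO set 4, and MT-ND4 had 4104 and 4107 CPM against 3884 and 4455 CPM. Per kb of length, MT-ND3 had 383 and 249 CPM and MT-ATP6 1473 and 1293 CPM in the treated libraries. The log2FC were positive for 3 genes, against 52.9% of all genes, namely MT-CO2 (0.17), MT-CO1 (0.13), and MT-ND4L (0.04). They were negative for 10, and the lowest were MT-ND6 (-0.54), MT-ATP8 (-0.24), and MT-ND1 (-0.23). The median was -0.12 against 0.03 for all genes. Libraries did not overlap for 7 genes that were lower (11.4% of all genes) and 2 that were higher (21% of all genes).

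MK-0752 alone gave 0 differentially expressed genes among the 13 by edgeR, against 0.251% of all tested genes. DESeq2 called 1, MT-ND3 (log2FC 1.04 by edgeR), where it called 0.722% of all genes. For 3 of the 13 genes the unadjusted p was under 0.05, against 6.41% of all genes. MT-ND1 had 1427 and 1551 CPM after MK-0752 against 1072 and 1103 CPM in DMSO set 2 (log2FC 0.45 ± 0.13, SE, edgeR adjusted p = 0.238). Both treated libraries also lay above the 4 other SK-LMS-1 libraries of DMSO set 4 and the combination, which reached 1239 CPM. MT-ND3 had 210.0 and 211 CPM against 72.0 and 132 CPM (log2FC 1.04 ± 0.35, SE, edgeR adjusted p = 0.527). Its DMSO libraries differed from each other by nearly as much as the treated ones did from them, and it passed both thresholds in 3 of 10 alternatives and with 0 of 12 libraries left out. MT-ND2 had 1174 and 1157 CPM against 936 and 902 CPM (log2FC 0.34, edgeR adjusted p = 0.581).

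Of the 13 log2FC after MK-0752, 10 were positive, against 46.9% of all tested genes, with a median of 0.22. Libraries did not overlap for 9 genes that were higher, against 16.9% of all genes. These were MT-ND1, MT-ND2, MT-ND3, MT-ND4, and MT-ND4L in complex I, MT-CYB, MT-CO1, MT-CO2, and MT-ATP6. In MT-ND4, for example, 5781 and 6353 CPM stood against 4647 and 4335 CPM (log2FC 0.43, edgeR adjusted p = 0.799). None of these 9 passed the adjusted p with all libraries in the edgeR test. The adjusted p of MT-ND1 fell under 0.05 with DESeq2 and with the libraries of the comparison alone, and that of MT-ND4 did so in the latter setting and without a filter beyond 1 count. Both also fell under 0.05 without SK-UT-1B library 3-1 or 3-3, which add to the shared estimate of spread. Their log2FC stayed below the threshold of 1 in each of these settings. MT-CO3 and MT-ATP8 went the other way, with lower values in both treated libraries, where 17.5% of all genes were lower without overlap. MT-CO3 had 2231 and 2372 CPM against 2956 and 2762 CPM (log2FC -0.31 ± 0.20, SE, edgeR adjusted p = 0.806), and MT-ATP8 had 542 and 644 CPM against 761 and 677 CPM (log2FC -0.28 ± 0.18, SE, edgeR adjusted p = 0.806).

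**Figure D3:**
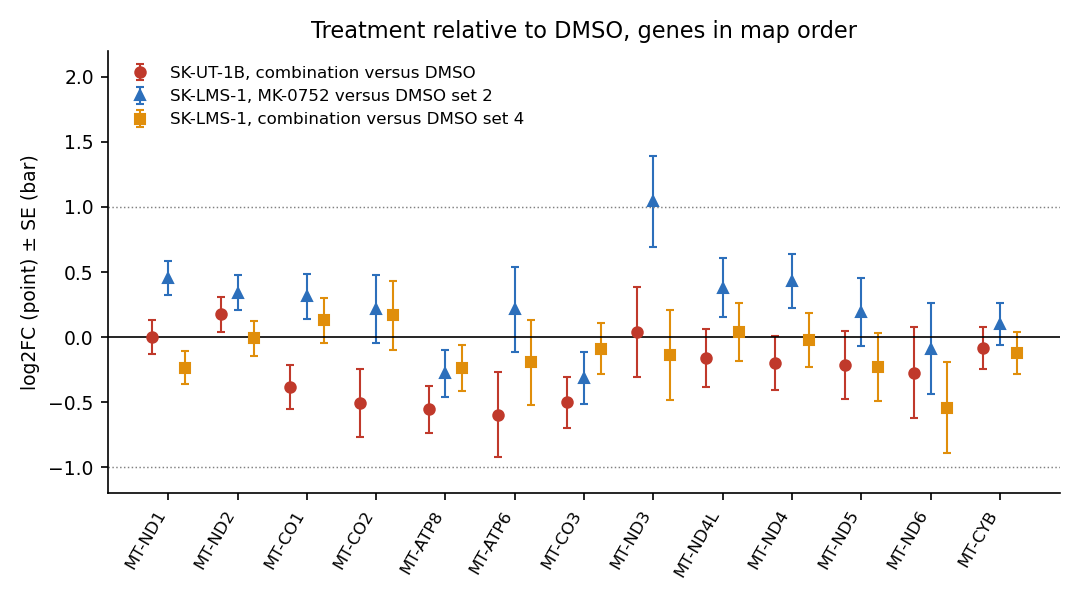
log2FC of each treatment relative to its DMSO libraries (y axis, points, with SE as bars) for the 13 protein-coding genes in map order (x axis), with the SK-UT-1B combination in red circles, MK-0752 in SK-LMS-1 in blue triangles, and the SK-LMS-1 combination in orange squares; dotted lines mark -1 and 1. No gene was differentially expressed by edgeR, and MT-ND3 after MK-0752 lies highest at 1.04.

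Within the 13 genes the composition after MK-0752 differed from every other library. MT-CO3 took 7.64% and 7.45% of the counts on the 13 genes in the MK-0752 libraries and 10.8% to 14.4% in the other 10. MT-ATP8 took 1.86% and 2.02% there and 2.51% to 3.51% in the other 10. The ratio of MT-CO3 to MT-ND4 counts was 0.386 and 0.373 after MK-0752 and 0.574 to 0.785 in the other 10 libraries. The ratio of MT-ATP8 to MT-ND4 was 0.0938 and 0.101, against 0.135 to 0.214. These ratios were looked at after the values were seen and have no test. MT-ATP8 and MT-ATP6 are carried on 1 mRNA that is cut from MT-CO3, their neighbor on the map. MT-ATP6, which lies between the other two genes, was not lower in CPM, at 1097 and 1287 after MK-0752 against 977 and 1080 in DMSO set 2. Its ratio to MT-ND4 was 0.190 and 0.203 after MK-0752, below the 0.210 to 0.273 of the other 6 SK-LMS-1 libraries and within the 0.135 to 0.221 of SK-UT-1B.

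**Figure D4:**
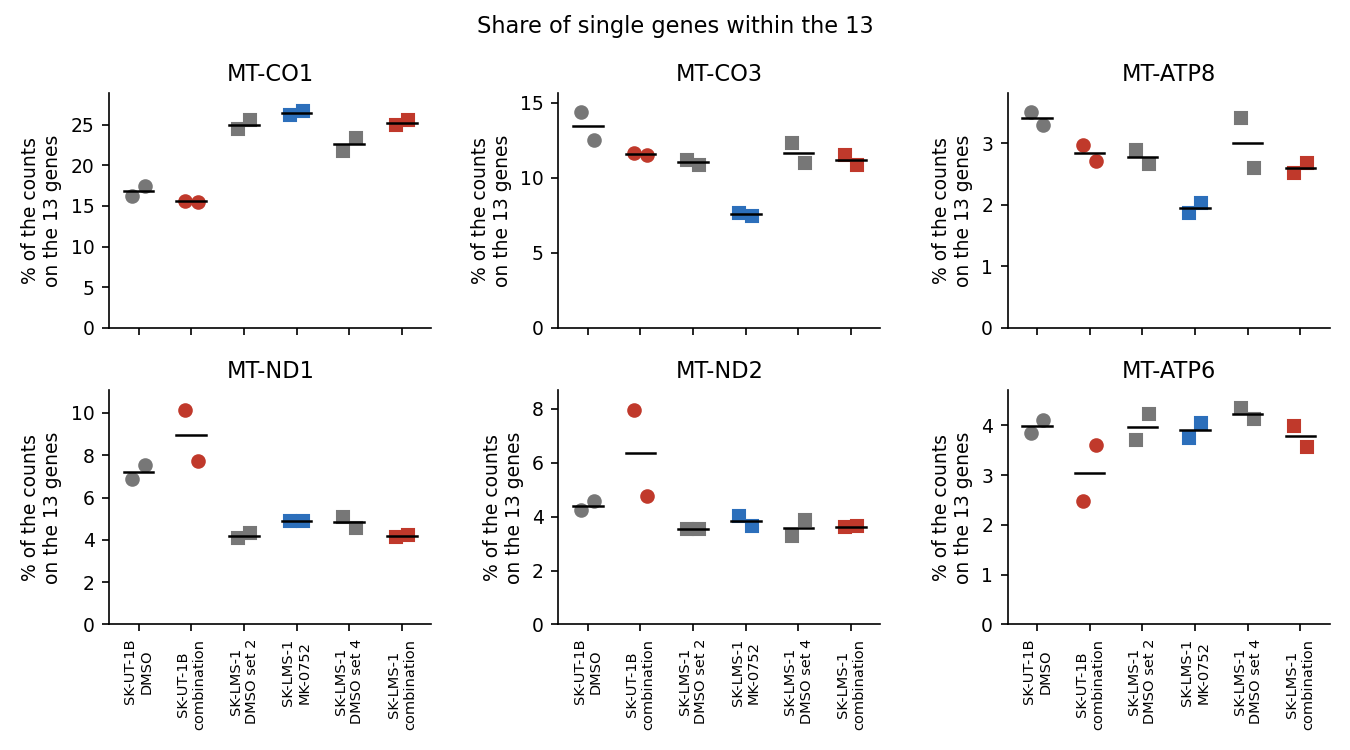
Share of 6 genes in the counts on the 13 protein-coding genes (y axes, percent) in each group (x axes), with a point for each library, circles for SK-UT-1B and squares for SK-LMS-1, and a line at the mean of 2 libraries. MT-CO1 and MT-ND1 separate the lines, MT-CO3 and MT-ATP8 are lowest after MK-0752 (7.45% to 7.64% and 1.86% to 2.02%), and the SK-UT-1B combination library 3-1 stands out in MT-ND1, MT-ND2, and MT-ATP6.

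The differences between responses were tested as interaction terms. The combination effect of SK-LMS-1 minus that of SK-UT-1B was called for 0 of the 13 genes, against 0.232% of all tested genes (edgeR, and 0 by DESeq2), and 0 reached an unadjusted p under 0.05, against 7.67% of all genes. MT-CO2 (difference in log2FC 0.67) and MT-CO1 (0.51 ± 0.24, SE, edgeR adjusted p = 0.652) had differences above 0.5. Without library 3-3, 2 of the 13 were called, MT-ATP6 and MT-CO2 (1.27, adjusted p = 8.35e-05), against 2.36% of all genes, and MT-CO1 lay at 0.90, below the threshold of 1. The MK-0752 effect minus the combination effect in SK-LMS-1 was called for 0 of 13, against 0.0379% of all genes (edgeR, and 0 by DESeq2), and 2 had an unadjusted p under 0.05, against 5.18% of all genes. MT-ND1 had an unadjusted p of 0.00122 (difference 0.69 ± 0.18, SE, edgeR adjusted p = 0.466), and MT-ND3 one of 0.0389 (difference 1.18 ± 0.49, SE, edgeR adjusted p = 0.911). The adjusted p of MT-ND1 fell under 0.05 with DESeq2, without a filter beyond 1 count, and with the libraries of the comparison alone. In these settings 0.315%, 0.313%, and 0.267% of all genes had such an adjusted p, against 0.0379%. The difference of MT-ND1 stayed below the threshold of 1, at 0.51 to 0.76 over the alternatives. The DMSO sets of SK-LMS-1, which differ in no labeled treatment, gave 0 of 13 genes, with 0 at an unadjusted p under 0.05, and 0% of all tested genes were called (edgeR, and 0 of the 13 by DESeq2), while 5.67% had an unadjusted p under 0.05.

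Both rRNAs of the mitochondrial ribosome were sparse, as the libraries were ribosome-depleted and rRNA reads were removed before counting, so these counts are what was left over and not rRNA levels. MT-RNR1 and MT-RNR2 together held 0.00746% to 0.0709% of all counts. MT-RNR1, the small subunit rRNA, had 1437 and 3010 counts in SK-UT-1B DMSO, 2190 and 747 after the combination, 2130 and 1482 in DMSO set 2, 8074 and 1046 in DMSO set 4, 3342 and 2802 with MK-0752, and 2220 and 735 with the combination in SK-LMS-1. The 8074 counts were in SK-LMS-1 DMSO 4-1, which was also highest in MT-RNR2, the large subunit rRNA, at 10075 counts. The libraries of set 4 thus lay at both ends of the range of the SK-LMS-1 DMSO libraries. Neither gene was differentially expressed in any of the 8 comparisons (edgeR, 0 at an unadjusted p under 0.05). After the SK-LMS-1 combination the log2FC were -1.87 for MT-RNR1 and -1.49 for MT-RNR2, and they turned to 0.84 and 0.66 without DMSO 4-1. In the same library the summed share of the 13 protein-coding genes was 2.35% of counts against 2.38% to 2.51% in the other 3 DMSO libraries, but ratios between these genes lay outside the range of those libraries. MT-ATP8 to MT-ND4 was 0.214 against 0.154 to 0.164, MT-CO3 to MT-ND4 was 0.771 against 0.636 to 0.653, and MT-CO1 to MT-ND1 was 4.29 against 5.12 to 6.04.

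The 22 tRNA genes are 59 to 75 bases long, no longer than the 75-base reads. Together they had 293 to 2738 counts per library, and 8 of the 22 were at 0 in every library. Only MT-TD reached a mean of 100 counts. Of the 11 tested, 3 were called lower in SK-LMS-1 after DMSO, against 14.1% of all genes, and 2 after the combination, against 9.88%. These 4 sequences are shown since they are the tRNA genes called in any comparison, with the anticodon of the gene in capitals.
MT-TD, tRNA for aspartate, chrM:7518-7585: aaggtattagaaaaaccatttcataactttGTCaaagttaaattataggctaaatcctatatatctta
MT-TI, tRNA for isoleucine, chrM:4263-4331: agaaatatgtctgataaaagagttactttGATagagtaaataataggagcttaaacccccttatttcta
MT-TM, tRNA for methionine, chrM:4402-4469: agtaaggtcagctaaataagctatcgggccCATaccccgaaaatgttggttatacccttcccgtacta
MT-TF, tRNA for phenylalanine, chrM:577-647: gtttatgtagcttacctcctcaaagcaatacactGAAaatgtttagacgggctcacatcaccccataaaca
Each of these genes abuts or nearly abuts a longer gene on the same strand, MT-CO2 after MT-TD, MT-ND1 before MT-TI, MT-ND2 after MT-TM, and MT-RNR1 after MT-TF.

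MT-TD had 353 and 355 counts in SK-UT-1B DMSO, 1002 in 3-1, and 204 in 3-3. In SK-LMS-1 it had 54 to 170 counts after DMSO, 200 and 96 in the MK-0752 libraries, and 74 and 110 with the combination. In CPM it was higher in each of the 4 SK-UT-1B libraries than in each of the 8 SK-LMS-1 libraries, and it was differentially expressed between the lines after DMSO (log2FC -1.75, edgeR adjusted p = 0.0142) and after the combination (-2.36, adjusted p = 0.0114). After DMSO the adjusted p was 0.084 without SK-UT-1B DMSO 4-1 and 0.0523 without SK-LMS-1 DMSO 2-3. After the combination the log2FC was -1.13 (adjusted p = 0.36) without library 3-1 and -1.94 (adjusted p = 0.136) without the SK-LMS-1 library 4-1. MT-TI had 46 and 235 counts in SK-UT-1B DMSO and 5, 43, 0, and 5 in SK-LMS-1 DMSO (log2FC -3.97, edgeR adjusted p = 0.0128), and without SK-UT-1B DMSO 4-2 the log2FC was -2.68 (adjusted p = 0.207). MT-TM had 1 and 68 counts in SK-UT-1B DMSO and 0, 6, 0, and 0 in SK-LMS-1 DMSO, so its call (adjusted p = 0.0479) rests on SK-UT-1B DMSO 4-2, without which the log2FC was -0.90. The highest count of MT-TM, 800, was again in library 3-1. MT-TF had 57 and 27 counts in SK-UT-1B and 0 and 0 in SK-LMS-1 after the combination, which is at least 11.8-fold lower by a floor of 3 counts per library (edgeR adjusted p = 0.0345, and up to 0.169 with 1 library left out). In the rest of SK-LMS-1, MT-TF counts were 0 and 0 for DMSO set 2, 39 and 44 for set 4, and 17 and 119 for MK-0752, so libraries with the same DMSO label differed as much. In the treatment comparisons 0 tRNA genes were called by edgeR, with 0 of 11 at an unadjusted p under 0.05 after the SK-UT-1B combination (10.5% of all genes), 1 after MK-0752 (6.41%), and 3 after the SK-LMS-1 combination (4.33%). Between DMSO set 4 and set 2, with no labeled difference in treatment, this number was also 3 of 11 (5.67%).

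Nuclear genes that act on mitochondrial RNA were read from lists written for this tissue and design. LRPPRC (ENSG00000138095.20), which binds and stabilizes mitochondrial mRNAs, had 699.8 and 729 CPM in SK-UT-1B DMSO, 834 and 730 after the combination, and 251 to 330 CPM in the 8 SK-LMS-1 libraries. It was differentially expressed between the lines after DMSO (log2FC -1.25 ± 0.13, SE, edgeR adjusted p = 1.27e-07) and after the combination (-1.50 ± 0.16, SE, adjusted p = 2.24e-07). SLIRP, its partner protein, had 32.6 and 29.6 CPM in SK-UT-1B DMSO and 18.2 to 25.1 CPM in SK-LMS-1 DMSO (log2FC -0.60, adjusted p = 0.0653). TFAM, which packages the genome and starts transcription, had 69.8 and 99.7 CPM against 42.6 to 55.7 CPM (log2FC -0.81 ± 0.18, SE, adjusted p = 0.00119), and without SK-UT-1B DMSO 4-2 the log2FC was -0.53 (adjusted p = 0.078). POLRMT, the RNA polymerase, had 66.7 and 53.5 CPM against 40.7 to 60.6 CPM, with overlap (log2FC -0.26, adjusted p = 0.355). LRPPRC thus separated the lines without overlap in every treatment, and POLRMT did not. In the treatment comparisons 0 of these 4 were differentially expressed by edgeR. SLIRP had 16.0 and 19.1 CPM after the SK-UT-1B combination (log2FC -0.83 ± 0.30, SE, edgeR adjusted p = 0.261).

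**Figure D5:**
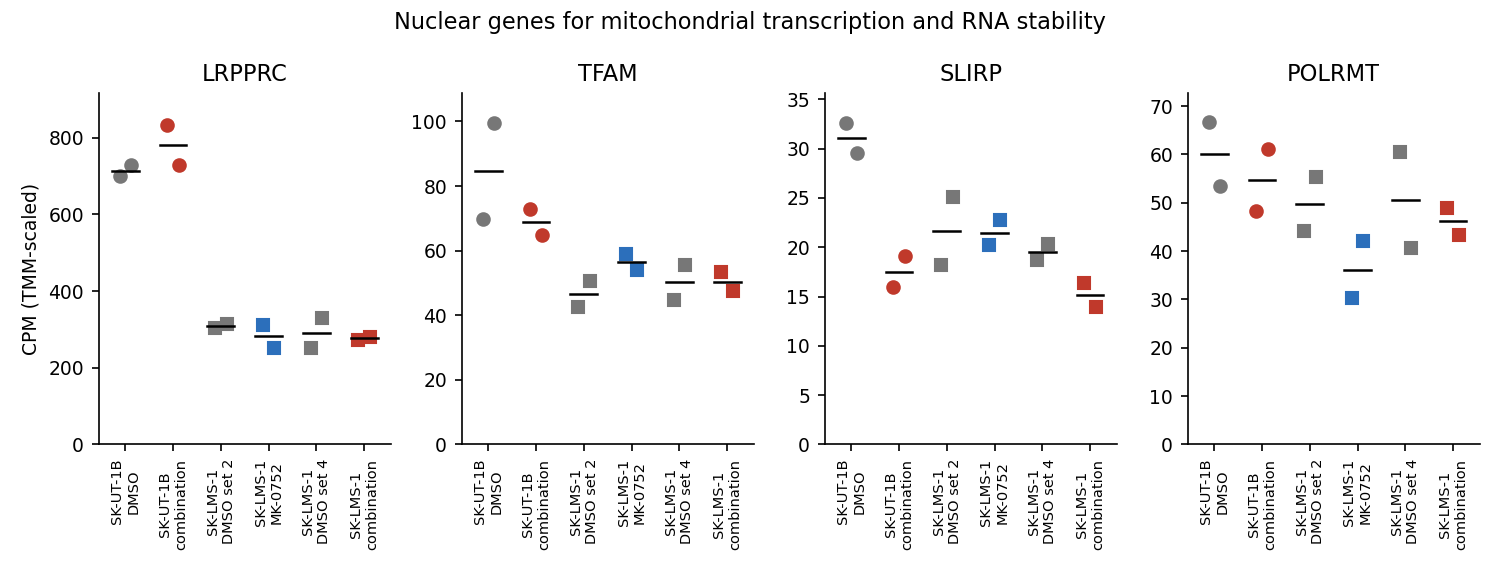
Normalized expression (y axes, CPM) of LRPPRC, TFAM, SLIRP, and POLRMT in the 6 groups (x axes), with a point for each library, circles for SK-UT-1B and squares for SK-LMS-1, and a line at the mean of 2 libraries. LRPPRC lies at 699.8 to 834 CPM in SK-UT-1B and 251 to 330 CPM in SK-LMS-1, while the POLRMT libraries of the lines overlap.

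By list, the lines after DMSO differed as follows, with 14.1% of all genes lower and 17% higher in SK-LMS-1. Of 12 genes for replication and nucleoids 6 were lower and 0 higher (median log2FC -0.84). Of 8 genes for RNA stability and decay 3 were lower and 1 higher (median -0.88), of 13 for RNA processing 4 and 0 (median -0.85), and of 9 for transcription 2 and 0 (median -0.47). The RNA processing count was 2 without SK-UT-1B DMSO 4-2, and that for transcription was 0 without it, while that for stability and decay was 5 without SK-LMS-1 DMSO 4-2. With 1 library left out, 11.9% to 14.03% of all genes were lower. Of 11 genes for the nucleotide supply of mitochondria 3 were lower and 2 higher, with a positive median of 0.36. Of 8 regulators of mitochondrial biogenesis 4 were lower and 0 higher (median -0.91). After treatment 0 genes of these lists were differentially expressed by edgeR. In list order, the unadjusted p was under 0.05 for 1, 2, 1, 0, 2, and 0 genes after the SK-UT-1B combination (10.5% of all genes), for 4, 0, 0, 1, 0, and 1 after MK-0752 (6.41%), and for 0 in each list after the SK-LMS-1 combination (4.33%). DESeq2 also called 0 genes of these lists after treatment. Without the DMSO library 2-3, the edgeR number for transcription after MK-0752 was above 0. That fit leaves 1 library in DMSO set 2, and the share of all genes called higher also rose in it.

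The 74 nuclear-encoded subunits of complexes I, III, IV, and V that stand beside the mitochondrial ones were described in the same way. After DMSO, 19 were lower and 1 was higher in SK-LMS-1 (median log2FC -0.68), and the medians were -0.67 for the 37 of complex I, -0.83 for the 9 of complex III, -0.84 for the 11 of complex IV, and -0.51 for the 17 of complex V. In complex I 7 of 37 were lower, against 14.1% of all genes, and 12 were without SK-LMS-1 DMSO 2-3. After the combination 8 were lower and 2 higher between the lines (9.88% and 15.6% of all genes, median -0.26). The median was -0.59 without library 3-1 and 0.03 without 3-3, each leaving 1 treated SK-UT-1B library. The number of lower ones was larger without 3-1 and smaller without 3-3. In SK-UT-1B after the combination 3 of the 74 log2FC were positive, against 49.1% of all genes, and 71 were negative (median -0.40 against 0 for all genes). Of the 74, 0 passed the thresholds by edgeR or DESeq2, against 0.559% of all genes by edgeR, with 17 at an unadjusted p under 0.05, against 10.5% of all genes. Without 3-1, 57 of 74 were negative. Without 3-3, which leaves 1 treated library, more of the 74 were called lower, and so were more of all genes. In SK-LMS-1, 46 of 74 were positive after MK-0752 (46.9% of all genes, median 0.10), but without the DMSO library 2-1 45 were negative and the median was -0.05. After the combination 27 of 74 were positive (52.9% of all genes, median -0.07).

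Signs of RNA quality and of scaling that moved with these results are given here. The nuclear-retained RNAs MALAT1 and NEAT1 together held 0.174% to 0.201% of counts in SK-UT-1B. Their sum was 0.148% to 0.165% after MK-0752 and 0.116% to 0.144% in the other SK-LMS-1 libraries, an order close to that of the mitochondrial share. Between the lines after DMSO their log2FC had opposite signs (-0.39 and 0.51), so this order holds for the sum and not for each RNA. The part of these RNAs in the result was not tested. TMM factors were 1.09 to 1.18 in SK-UT-1B and 0.919 to 0.964 in SK-LMS-1. With total counts in place of TMM the median of all genes between the lines moved to -0.17 after DMSO and -0.18 after the combination, and 9 and 10 of the 13 genes were differentially expressed, against 32.1% and 26.8% of all genes (31.1% and 25.4% with TMM).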

How the data were processed

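The authors prepared stranded, ribosome-depleted libraries from total RNA, sequenced 75-base single-end reads, trimmed them with Trim Galore (version 0.3.7), aligned to hg38 with STAR (version 2.7.9a), filtered out rRNA with SortMeRNA, and deposited raw counts per gene made with STAR; their own tests used DESeq2 (version 1.42.0). The counting annotation, strand setting, and options for reads with several positions or genes are not given in the sources used here. All 12 libraries were mapped to 6 groups of 2 by their labels, and 0 columns of per-sample values were left unmapped. The counts were tested with edgeR (version 4.0.16, R 4.3.3; TMM, filterByExpr, robust quasi-likelihood fit) over 21114 genes, with 1 shared estimate of spread, Benjamini-Hochberg adjustment over all of them, and thresholds of 1 for absolute log2FC and 0.05 for adjusted p. The SE is the absolute log2FC divided by the square root of F. CPM used TMM-scaled library sizes. The scripts were tested on simulated data.

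Total counts of 25250057 to 40709885 per library leave the protein-coding genes limited by the spread between libraries, not by counting. All protein-coding and rRNA genes were named, tRNA genes if called or with a mean of at least 100 counts, and of the nuclear lists POLRMT, TFAM, LRPPRC, and SLIRP. The members and lists were chosen with earlier results of these data known. DMSO libraries of SK-LMS-1 were assigned to treatments by the first number of their names, whose meaning the labels do not state. Alternatives were DESeq2 (version 1.42.0), DESeq2 size factors, total counts, scaling from nuclear genes, other filters, all 4 DMSO libraries as 1 group, the libraries of a comparison alone, replicate blocks, and leaving out each library. Adding pseudogene counts was chosen after seeing the data. Nuclear copies were found with blastn (version 2.17.0).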

Additional observations from a re-analysis of the deposited data

Results flagged for a closer look

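Of 16 values checked for a library far from the others of its group (the 13 protein-coding genes, both rRNAs, and the share of counts, in the 4 SK-LMS-1 DMSO libraries), 1 stood out, where chance gives about 1 in 20. This was MT-RNR1, for which library DMSO 4-1 had 328 CPM and the other 3 had 27.1 to 61.0 CPM. The gap to the nearest library was 0.887 of the whole range, above Dixon's 95% critical value for 4 samples. The same library had 409 CPM of MT-RNR2, against 51.6 to 114 CPM in the other 3. How much rRNA was left by depletion was not tested.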

How the results depend on the processing

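The number of differentially expressed protein-coding genes was recomputed for 8 comparisons. It moved by over 1.5 times or from 0 in these cases. For MK-0752 in SK-LMS-1 it was 1 (MT-ND3) with DESeq2, without a filter beyond 1 count, and with the libraries of the comparison alone. In these settings 0.722%, 0.582%, and 0.590% of all genes were called, against 0.251%. For the MK-0752 effect minus the combination effect the number was 1 without that filter (0.296% of all genes, against 0.0379%). For the lines after the combination the number was 10 with total counts without TMM, where 14.0% of all genes were lower, against 9.88%. Leaving out 1 library at a time moved the number that far for the lines after DMSO and for the lines after the combination. It also did so for the SK-UT-1B combination and for the difference between the combination effects, and the others stayed at 0. Such a fit leaves 1 library in a group, and the share of all genes called also moved. The share of counts in SK-LMS-1 after the combination was 2.37% of nuclear counts instead of 2.32% of all counts, the one group where this exceeded the SD of its libraries, and in SK-UT-1B it was 5.51% instead of 5.22% after DMSO and 4.74% instead of 4.52% after the combination.

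Of 1383 values of named genes under alternatives, 1298 kept direction and call, 31 lost the call, 40 gained it, and 14 changed sign. Between the lines after the combination, MT-CO1 changed from 0.03 to -0.0103 (DESeq2 size factors, and DESeq2), -0.26 (total counts), -0.00425 (nuclear scaling), -0.00411 (no filter), and -0.0131 (mean of at least 50 counts), and with 1 library left out it lay between -0.30 and 0.42. MT-CO2 changed to 0.0206 with the replicate block and POLRMT to 0.0579, and with 1 library left out MT-CO2 lay between -0.64 and 0.40 and MT-ATP6 between -0.93 and 0.33, both positive without 3-3. After the SK-LMS-1 combination, MT-RNR1 lay between -2.76 and 0.84 and MT-RNR2 between -2.32 and 0.66, both positive without DMSO 4-1. The cause of these changes was not tested. With the replicate block 7 genes were lower in SK-LMS-1 after DMSO (12.5% of all genes) and 2 after the combination (8.39%). The other 6 counts were 0. Where 2 groups shared both second numbers of their library names, same-numbered libraries showed no common deviation (correlations of -0.017 to 0.027 over 2 pairs each). Most of these pairs of groups crossed the lines. Of the treatment comparisons, only the SK-LMS-1 combination with DMSO set 4 was among them (-0.011). Each correlation rests on 1 difference per group, so whether libraries were paired cannot be decided from it. Groups that share 1 second number, such as MK-0752 and DMSO set 2, were not tested in this way. With pseudogene counts added, 11 instead of 12 genes passed the adjusted p alone between the lines after DMSO, as MT-ATP6 did not. Taking all 4 SK-LMS-1 DMSO libraries as 1 group leaves no comparison of set 4 with set 2. Counts in the tRNA genes were too low for more than a description.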

Other observations

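Among the regulators of mitochondrial biogenesis, the coactivators separated the lines most, and they are named here after their values were seen. PPARGC1A lay at 114 to 138 CPM in the 4 SK-UT-1B libraries and 0 to 1.53 CPM in the 8 SK-LMS-1 libraries (edgeR adjusted p = 0.00379 after DMSO). PPARGC1B, its relative, lay at 22.6 to 27.7 CPM against 0.974 to 4.12 CPM (log2FC -3.69, edgeR adjusted p = 2.89e-06). In the nucleotide supply of mitochondria the directions were mixed. SAMHD1, which degrades deoxynucleotides, lay at 34.7 to 42.6 CPM in SK-UT-1B and 128 to 148 CPM in SK-LMS-1 (log2FC 1.93, edgeR adjusted p = 6.99e-09). TK2, the mitochondrial thymidine kinase, lay at 13.02 to 16.3 CPM against 45.6 to 66.5 CPM (log2FC 1.91, edgeR adjusted p = 7.34e-07). SUCLA2, a subunit of succinyl-CoA ligase, was lower in SK-LMS-1 (log2FC -2.42, edgeR adjusted p = 2.86e-07).

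Nuclear copies of mitochondrial genes had counts of their own and did not follow 1 pattern, in rows named after their values were seen. MTND2P28, a copy of MT-ND2, had 104 to 122 CPM in SK-UT-1B and 48.4 to 74.3 CPM in SK-LMS-1, in the direction of MT-ND2. MTATP6P1, a copy of MT-ATP6, had 38.2 to 81.0 CPM in SK-UT-1B and 80.4 to 281 CPM in SK-LMS-1, against the direction of MT-ATP6. Its highest value was in SK-LMS-1 DMSO 4-1, the library with the most MT-RNR1. The 402 pseudogene rows together held 0.0147% to 0.0324% of counts.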
